A study of Mus musculus with 7 samples.

Results

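Cd86, Cd40, Ms4a1 and Cd9 encode proteins of the B cell surface, and their RNA was measured in activated B cells with and without a functional Batf gene. The 4 genes were taken by symbol from a deposited table of 752 genes, and each had 1 row. The table lists the genes that passed the authors' own comparison of the genotypes at a false discovery rate (FDR) under 0.05, out of 19734 genes that they tested. A gene in it had therefore already passed a test of the genotypes on these libraries, and none of the 4 genes could have appeared there otherwise.

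CD86 is a ligand that delivers a costimulatory signal to T cells through CD28, and it is raised on B cells by activation. CD40 is the receptor through which helper T cells, by CD40 ligand, drive B cell proliferation, germinal centre formation and antibody class switching. CD20, the product of Ms4a1, is a membrane protein with several membrane-spanning segments that marks mature B cells and is the target of therapeutic antibodies. CD9 is a tetraspanin, a small adaptor that organises other proteins in the membrane, and in the mouse spleen it is known as a marker of marginal zone B cells, B1 cells and antibody-secreting cells.

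The data are 3 Batf KO and 4 wild-type RNA-seq libraries, each treated here as 1 mouse, all on the C57BL/6J background. B cells purified from the spleen on magnetic columns had been cultured for 6 h in 20 µg/mL lipopolysaccharide (LPS, a ligand of TLR4) and 20 ng/mL interleukin-4 (IL-4), so both groups were stimulated and no resting cells were included. The sources used here do not give the age or sex of the mice or how the Batf KO allele was made. In bulk RNA, fewer cells of a type and less RNA per cell cannot be told apart. Levels are in CPM, read counts scaled to one common library size. The effective sizes behind them ran from 23675459 to 30844920 reads for Batf KO and from 24891094 to 44728937 for wild type. Replicates are numbered here in the order of the sample records, so a number names a library and links no library of 1 group to the other. Batf itself, the targeted gene, ranged over 63.4 to 70.3 CPM with the knockout label (3 libraries) and 307 to 333 CPM with the wild-type label (4 libraries). Of 10 fixed B cell marker genes, Ms4a1 and Blnk, an adaptor gene of B cell receptor signalling, are in the table and were read in every library, and the other 8 have no value here. Of all genes the authors tested, 3.81% are in the table. The summed level of Ms4a1 and Blnk was 1053 to 1112 CPM in Batf KO and 697 to 781 CPM in wild type. Ms4a1, 1 of the 4 genes described here, made up most of it, with means of 879 and 580 CPM. The sum therefore had to follow Ms4a1 and is no separate measure of B cell content. The part of B cell content in these levels was not tested. Blnk alone was 1.26-fold higher in Batf KO (edgeR adjusted p = 0.0576 over 19734 genes).

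Of the 4 genes, Cd9 was matched in the RefSeq promoter table (build GRCm38.p6). The 250 bases before its start are printed because they show the kind of promoter that this low-expressed member has (chr6:125494761-125495010, minus strand, 5′ to 3′), with capitals marking the GC box letters GGGCGG. The start is that of the RefSeq table and lies inside the span that GENCODE gives the gene, so the end of the printed run is within that span and distances are counted from the RefSeq start.

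Cd9 promoter: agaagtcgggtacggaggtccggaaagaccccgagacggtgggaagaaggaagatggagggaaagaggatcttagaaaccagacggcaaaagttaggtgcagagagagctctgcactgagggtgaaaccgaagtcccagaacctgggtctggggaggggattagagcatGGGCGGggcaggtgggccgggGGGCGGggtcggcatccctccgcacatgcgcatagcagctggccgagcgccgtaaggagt

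The sequence is 61.6% G and C, against a median of 52.4% over the 32851 promoters of the table. GC boxes, searched on both strands as GGGCGG, begin 81 and 60 bases before the start, and 32.7% of all promoter windows of this length hold at least one. The AP-1 letters TGANTCA, the class of site that BATF binds with JUN proteins, are not in this window, and 6.75% of all windows hold them. The TATA box letters TATAAA are not in it either, and 12.4% of windows hold them. All motifs were searched on both strands, and none of them overlaps another by its letters.

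All 4 genes were higher in Batf KO. The authors' test called 3.81% of the genes they tested, 1.95% as higher in Batf KO, and all 4 of these genes had to be among the called because the table lists no others. In the edgeR quasi-likelihood test run here on the deposited counts, 4 of 4 passed at an adjusted p under 0.05 as higher, against 50.8% of the 667 table genes that were fitted. Counting both directions, 100% of the 667 passed, so the count carries no information about these 4 genes. A stricter adjustment over all 19734 genes, which counts each gene outside the table as unchanged, left 3 of 4, all but Cd9, and 20.1% of the fitted genes as higher. This is 0.679% of all the genes the authors tested. For each member both adjusted p-values of the edgeR test are given, the first over the fitted genes and the second over 19734 genes.

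Cd86, on chromosome 16 (36603869 to 36666081, minus strand, GRCm38), was read at 383, 404 and 316 CPM in Batf KO replicates 1 to 3 and at 260, 255, 217 and 256 CPM in wild-type replicates 1 to 4. The groups did not overlap, and the lowest Batf KO library stood 55.9 CPM above the highest wild-type library. Wild-type replicate 3 and Batf KO replicate 3 were the lowest libraries of their groups. The means were 368 ± 45.7 CPM (SD, n = 3) and 247 ± 20.0 CPM (SD, n = 4). Cd86 rose 1.49-fold, a log2 fold change of 0.57 (SE 0.10, 95% interval 0.35 to 0.80), with edgeR adjusted p-values of 0.000893 and 0.0264.

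Cd40, on chromosome 2 (165055627 to 165072948, plus strand), was the steadiest of the 4 genes between libraries of a group. It was read at 415, 408 and 391 CPM in the Batf KO libraries and at 325, 337, 316 and 307 CPM in the wild-type libraries, again with no overlap. The means were 404 ± 12.1 CPM (SD, n = 3) and 321 ± 12.8 CPM (SD, n = 4). Its change was the smallest of the 4 in fold, at 1.26-fold (log2 fold change 0.33, SE 0.06, 95% interval 0.20 to 0.46), and both edgeR adjusted p-values passed (0.000882 and 0.0261). Among the 339 fitted genes that were higher in Batf KO, 318 had a larger log2 fold change than Cd40.

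Ms4a1, on chromosome 19 (11249675 to 11266241, minus strand), had the most reads of the 4 genes in every library. It was read at 832, 901 and 905 CPM in the Batf KO libraries, all above the 613, 612, 560 and 533 CPM of the wild-type libraries. The lowest Batf KO library was 1.36 times the highest wild-type library, the widest separation among the 4 genes. The means were 879 ± 40.9 CPM (SD, n = 3) and 580 ± 39.6 CPM (SD, n = 4). Ms4a1 rose 1.52-fold, a log2 fold change of 0.60 (SE 0.07, 95% interval 0.44 to 0.76), with edgeR adjusted p-values of 0.000133 and 0.00392.

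Cd9, on chromosome 6 (125460266 to 125494791, minus strand), was the gene with the fewest reads. Its counts were 463, 398 and 276 reads in the Batf KO libraries and 320, 227, 473 and 279 reads in the wild-type libraries. Scaled to library size these were 15.0, 14.8 and 11.7 CPM against 8.03, 7.54, 10.6 and 11.2 CPM. The lowest Batf KO library and the highest wild-type library differed by 0.449 CPM, so the groups only just failed to overlap. The means were 13.8 ± 1.87 CPM (SD, n = 3) and 9.34 ± 1.82 CPM (SD, n = 4), a 1.48-fold difference (log2 fold change 0.57, SE 0.17, 95% interval 0.17 to 0.96). The edgeR adjusted p was 0.0111 over the fitted genes and 0.329 over 19734 genes, while the FDR in the authors' deposited table is 0.0386. That FDR also counts 19734 genes. Before adjustment p was 0.0103 in the edgeR quasi-likelihood test run here and 0.00138 in the authors' test. Gm26728, a transcript on the opposite strand, shares 218 bases, or 10.7%, of the annotated exons of Cd9. No source used here gives the strand setting of the counting, so reads of the pair cannot be told apart over those bases.

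**Figure D1:**
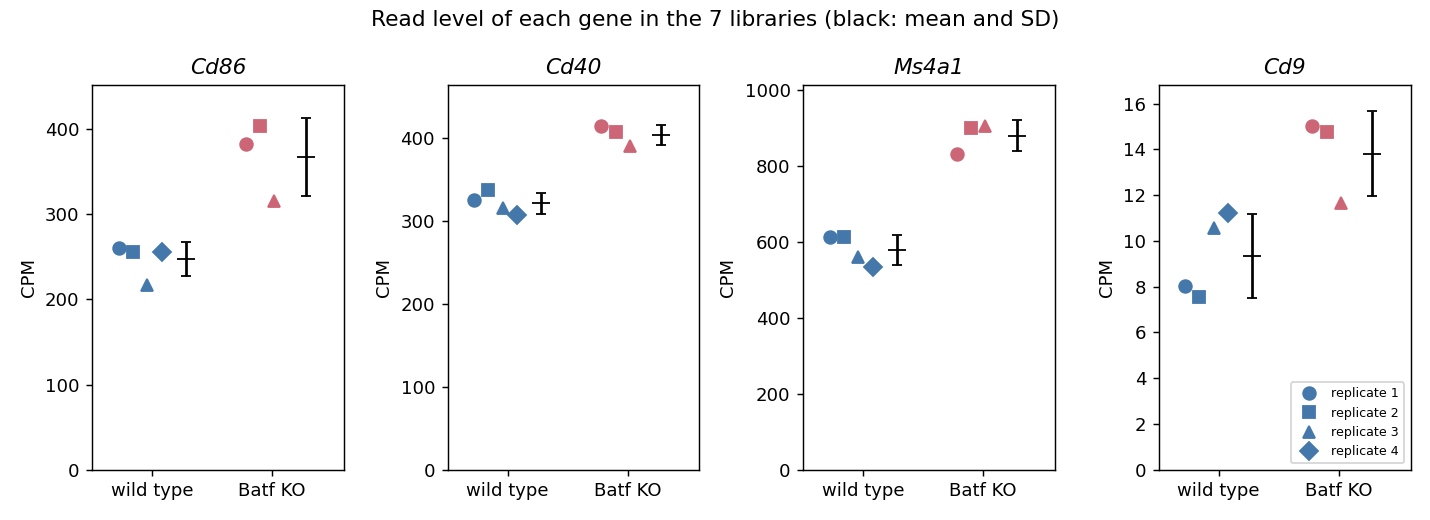
Level of Cd86, Cd40, Ms4a1 and Cd9 in CPM (vertical axis, from 0) in each wild-type (blue) and Batf KO (red) library, with the symbol giving the replicate and the black bar the group mean and SD. In every panel the 3 Batf KO points lie above the 4 wild-type points, with the narrowest gap for Cd9, where 11.7 CPM in Batf KO replicate 3 meets 11.2 CPM in wild-type replicate 4.

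For each of the 4 genes an exact permutation test on CPM (two-sided, 35 arrangements of the genotype labels) gave p = 0.0286, the smallest that 3 against 4 libraries allow. The 4 p-values are equal because none of the groups overlapped, and 47.5% of the fitted table genes were likewise higher in Batf KO with no overlap. In log2 fold change Cd86, Ms4a1 and Cd9 lay near the middle of the fitted genes that were higher in Batf KO, whose median was 0.59. Of those 339 genes, 178 had a larger change than Cd86, 161 than Ms4a1 and 182 than Cd9.

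The spread between libraries of a group exceeded counting error for all 4 genes. For Cd40 the coefficient of variation was 2.99% in Batf KO and 3.99% in wild type, where counting alone would give 0.961% and 0.971%. For Ms4a1 it was 4.66% and 6.83%. Cd86 varied more, at 12.4% in Batf KO and 8.08% in wild type, although its reads per library (6367 to 11821) were nearly as many as those of Cd40 (7649 to 14132). Cd9 varied by 13.5% and 19.5%, against 5.26% and 5.75% from counting.

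The libraries did not deviate together across the 4 genes. Wild-type libraries were alike in pairs over the whole table, with a chi-square per gene of 18.8 between replicates 1 and 2 and of 21.2 between replicates 3 and 4, against 34.3 to 50.5 for the remaining pairs. Cd9 followed the same division, at 8.03 and 7.54 CPM in replicates 1 and 2 and 10.6 and 11.2 CPM in replicates 3 and 4. Ms4a1 was divided the other way round, at 613 and 612 CPM against 560 and 533 CPM. Cd40 was divided as Ms4a1 was, at 325 and 337 CPM against 316 and 307 CPM. Without wild-type replicates 1 and 2 the log2 fold change of Cd9 was 0.35 and did not pass (edgeR adjusted p = 0.0717), and without replicates 3 and 4 it was 0.83 (edgeR adjusted p = 0.00381). Cd86, Cd40 and Ms4a1 passed over the fitted genes with either pair left out. In Batf KO, replicate 3 was the lowest library for Cd86, Cd40 and Cd9 and the highest for Ms4a1. By the numbers in the sample titles, every Batf KO library lies between wild-type replicates 1 and 2. Wild-type replicates 3 and 4 come after all of these. What the title numbers stand for is not given, so a difference that goes with them cannot be fully told apart from genotype. What sets these libraries apart was not tested.

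**Figure D2:**
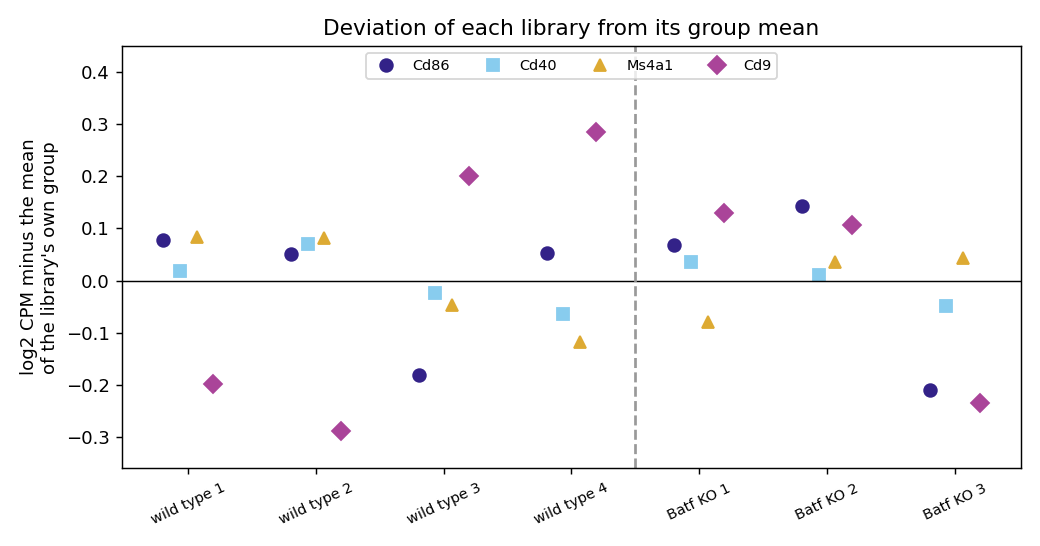
Deviation of each library's log2 CPM from the mean of its own group (vertical axis) for the 4 genes, with wild-type libraries left and Batf KO libraries right of the dashed line. Cd9 lies below its group mean in wild-type replicates 1 and 2 and above it in replicates 3 and 4, and Ms4a1 and Cd40 show the opposite signs.

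To ask whether any 2 of the 4 genes changed by different amounts, their CPM ratio was taken within each library, which does not depend on library size. Of the 6 pairs, only Cd40 to Ms4a1 had groups that did not overlap. The log2 ratio of Cd40 to Ms4a1 was -1.01, -1.14 and -1.21 in the Batf KO libraries and -0.91, -0.86, -0.83 and -0.80 in the wild-type libraries. Cd40 was therefore lower relative to Ms4a1 in every Batf KO library than in any wild-type library. The mean difference was -0.27 with an exact permutation p of 0.0286, and 0.171 after adjustment over the 6 pairs. As 0.0286 is the smallest p that 3 against 4 libraries allow, a pair that alone reaches it cannot pass this adjustment. Cd86 to Cd40 differed by 0.24 with overlapping groups (exact permutation p = 0.0857, adjusted 0.257), and a Batf KO library minus a wild-type library gave -0.04 to 0.53. The ratio of Cd86 to Ms4a1 differed by -0.03, with such pairs of libraries from -0.46 to 0.25. For Cd86 to Cd9, Cd40 to Cd9 and Ms4a1 to Cd9 the differences were -0.01, -0.24 and 0.03, and the adjusted exact permutation p was 0.686 or more. Pairs of libraries spanned -0.70 to 0.29 for Cd40 to Cd9 and -0.55 to 0.71 for Ms4a1 to Cd9, so these values do not show that Cd9 changed by the same amount as the other genes.

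**Figure D3:**
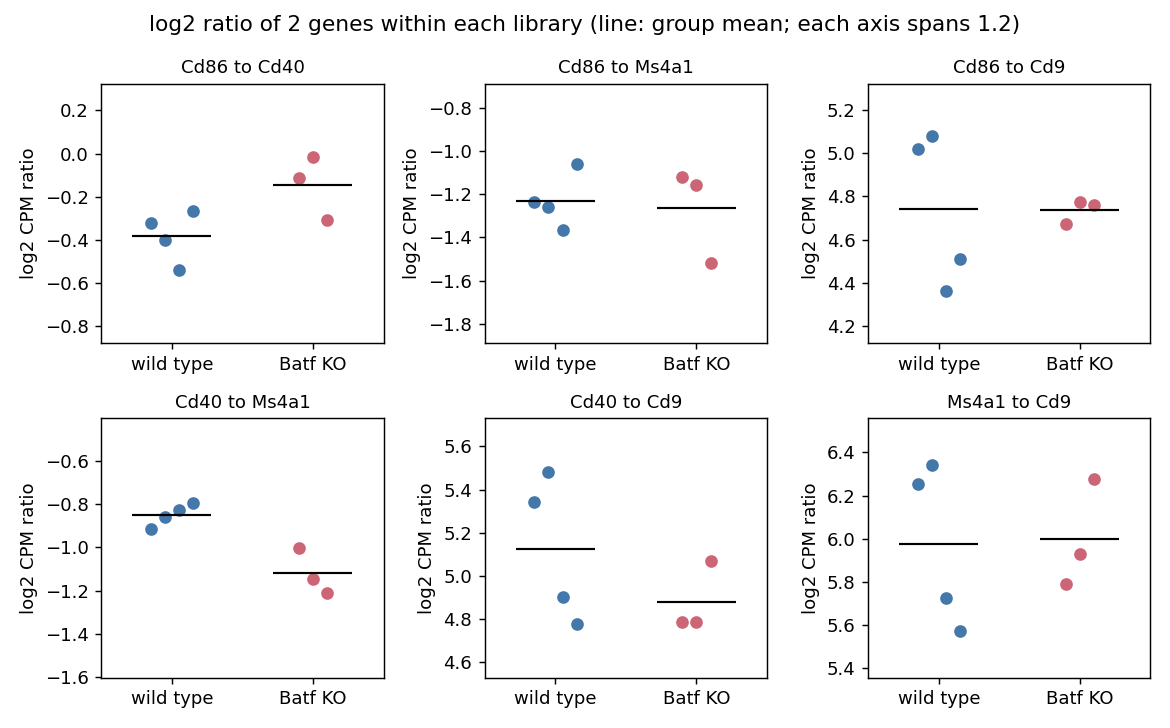
log2 ratio of the CPM of 2 genes within each library (vertical axis, each spanning the same width) for the 6 pairs, with points for wild-type (blue) and Batf KO (red) libraries and a line at the group mean. The Cd40 to Ms4a1 panel is the one in which the groups are apart, with all Batf KO values at -1.01 or lower and all wild-type values at -0.80 to -0.91.

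Levels of different genes were compared per kilobase of annotated exon. With all exons of a gene merged (GENCODE M21), wild-type levels were 94.4 ± 3.76 CPM per kb for Cd40 and 93.7 ± 6.40 for Ms4a1, which did not differ beyond their spread, then 67.5 ± 5.46 for Cd86 and 4.57 ± 0.892 for Cd9 (SD, n = 4). In Batf KO the order was Ms4a1 at 142 ± 6.62, Cd40 at 119 ± 3.55, Cd86 at 100.4 ± 12.5 and Cd9 at 6.76 ± 0.915 CPM per kb (SD, n = 3), and the ranges of these genes did not overlap. The order among the upper 3 genes rests on the length used. Per kilobase of the longest coding transcript, Ms4a1 was highest in wild type at 188 ± 12.9 CPM per kb (SD, n = 4), Cd40 was at 108 ± 4.29 and Cd86 at 97.4 ± 7.87, with Cd9 again lowest at 7.60 ± 1.49. On that length Ms4a1 was also highest in Batf KO, and Cd86 at 145 ± 18.0 and Cd40 at 135 ± 4.05 CPM per kb (SD, n = 3) overlapped.

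Among 25 genes of costimulation and coinhibition on antigen-presenting cells, 9 were in the table, where 3.81% of all genes tested are, and 9 of 9 were higher in Batf KO. Their median log2 fold change was 0.42. Cd86 and Cd40 are among the 9 and were chosen from the table, so their part in both counts was fixed beforehand. Over all 667 fitted genes the median was 0.30, and 50.8% were higher. Vsir, which encodes the inhibitory receptor VISTA, rose to 39.4 ± 3.05 CPM in Batf KO (SD, n = 3), compared with 19.2 ± 1.63 CPM in wild type (SD, n = 4). Cd274, the gene of the inhibitory ligand PD-L1, rose by 0.59 on the log2 scale, and Btla, an inhibitory receptor gene, rose 1.34-fold, to 368 ± 18.5 CPM (SD, n = 3). These 3 genes, Cd86 and Cd40 passed over 19734 genes. Icosl, the ICOS ligand gene, was 2.08-fold higher and missed that adjustment (edgeR adjusted p = 0.0507), as did Cd47 (1.31-fold, edgeR adjusted p = 0.0533), the gene of a ligand that inhibits phagocytosis, the adhesion gene Icam1 (1.31-fold) and Cd24a (1.31-fold). The other 16 genes of the list, among them Cd80, whose product also binds CD28, have no row and so no level here.

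Of 28 genes of CD40 signalling, 6 were in the table, where 3.81% of all genes tested are. Of these, 4 were higher and 2 lower, near the 50.8% higher among the fitted genes, with a median of 0.37 in log2 fold change. Cd40 is among the 4 and was chosen from the table. The survival gene Bcl2l1 rose 1.48-fold and Nfkbid, which encodes a nuclear IkappaB protein, rose 1.40-fold. Map3k14, the gene of the kinase NIK in the noncanonical NF-kappaB pathway, fell to 28.3 ± 1.92 CPM in Batf KO (SD, n = 3), compared with 42.7 ± 1.19 CPM in wild type (SD, n = 4), opposite in direction to Cd40. Tab2, an adaptor gene of the TAK1 kinase, fell 1.35-fold. Birc2, an inhibitor of apoptosis gene that limits NIK, was 1.32-fold higher and was the one of the 6 that missed the adjustment over 19734 genes (edgeR adjusted p = 0.0572). Cd40lg and the 5 TRAF genes of the list have no row.

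Cd9 was 1 of 4 tetraspanin genes in the table out of 22, where 3.81% of all genes tested are in it. All 4 were higher in Batf KO, against 50.8% of the fitted genes, with a median of 0.67 in log2 fold change. Cd9 was chosen from the table, so its part in these counts was fixed beforehand. Cd82, a tetraspanin gene with far more reads, rose to 215 ± 6.24 CPM in Batf KO (SD, n = 3), compared with 125 ± 12.1 CPM in wild type (SD, n = 4). It was the one of the 4 with a passing edgeR adjusted p over 19734 genes (0.00229). Tspan3 was 1.46-fold higher (edgeR adjusted p = 0.0537 over 19734 genes). Tspan33 was at 9.19 ± 4.62 CPM in Batf KO (SD, n = 3) and 3.36 ± 1.91 CPM in wild type (SD, n = 4), with overlapping groups. Cd37, Cd53 and Cd81, tetraspanin genes of B cells, have no row.

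Ms4a1 was 1 of 3 MS4A family genes in the table out of 15, against 3.81% of all genes tested. All 3 were higher, against 50.8% of the fitted genes, and their median was 0.60 in log2 fold change. Ms4a1 was chosen from the table, so its part in these counts was fixed beforehand, and the median is its own value. The 3 genes lie on the same stretch of chromosome 19. Ms4a4c (11404770 to 11427246, plus strand) begins 139 kb from Ms4a1, and Ms4a6c (11469366 to 11482192, plus strand) begins 203 kb from it. Ms4a6c rose to 125 ± 11.2 CPM in Batf KO (SD, n = 3), compared with 73.9 ± 8.34 CPM in wild type (SD, n = 4), with edgeR adjusted p-values of 0.000276 and 0.00816. Ms4a4c was at 271 ± 22.3 CPM (SD, n = 3) in Batf KO and 180 ± 56.2 CPM (SD, n = 4) for wild type, with an edgeR adjusted p of 0.752 over 19734 genes. MS4A genes are related in sequence, and no source used here says how reads shared between copies were counted. Within 250 kb of the other 3 genes, the table holds no gene around Cd86 or Cd9 and 1 around Cd40, Ctsa, which was lower.

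Of 35 B cell surface and antigen receptor genes, 11 were in the table (3.81% of all genes tested are), 8 higher and 3 lower, so Ms4a1 did not move with all of them. Of the fitted genes 50.8% were higher, and the median of the 11 was 0.41 in log2 fold change. Ms4a1 is among the 8 and was chosen from the table. Tnfrsf13c, the gene of the BAFF receptor, rose to 584 ± 8.15 CPM in Batf KO (SD, n = 3), compared with 351 ± 20.0 CPM in wild type (SD, n = 4). Fcrl1, an Fc receptor-like gene of B cells, rose 1.56-fold, and the chemokine receptor gene Ccr7 rose 1.61-fold. Tnfrsf13b, the gene of TACI, which binds BAFF as the BAFF receptor does, fell to 160 ± 12.3 CPM in Batf KO (SD, n = 3), compared with 370 ± 42.7 CPM in wild type (SD, n = 4). Slamf6, a SLAM family receptor gene, fell 4.06-fold and the IL-4 receptor gene Il4ra fell 1.65-fold. Cd72, Cd24a, Cd69 and Ly9 were 1.28-fold to 1.48-fold higher and did not pass over 19734 genes. Of 14 genes of antigen presentation by MHC class II, Lgmn, which encodes a lysosomal protease, was in the table (1.25-fold higher, edgeR adjusted p = 0.121 over 19734 genes).

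**Figure D4:**
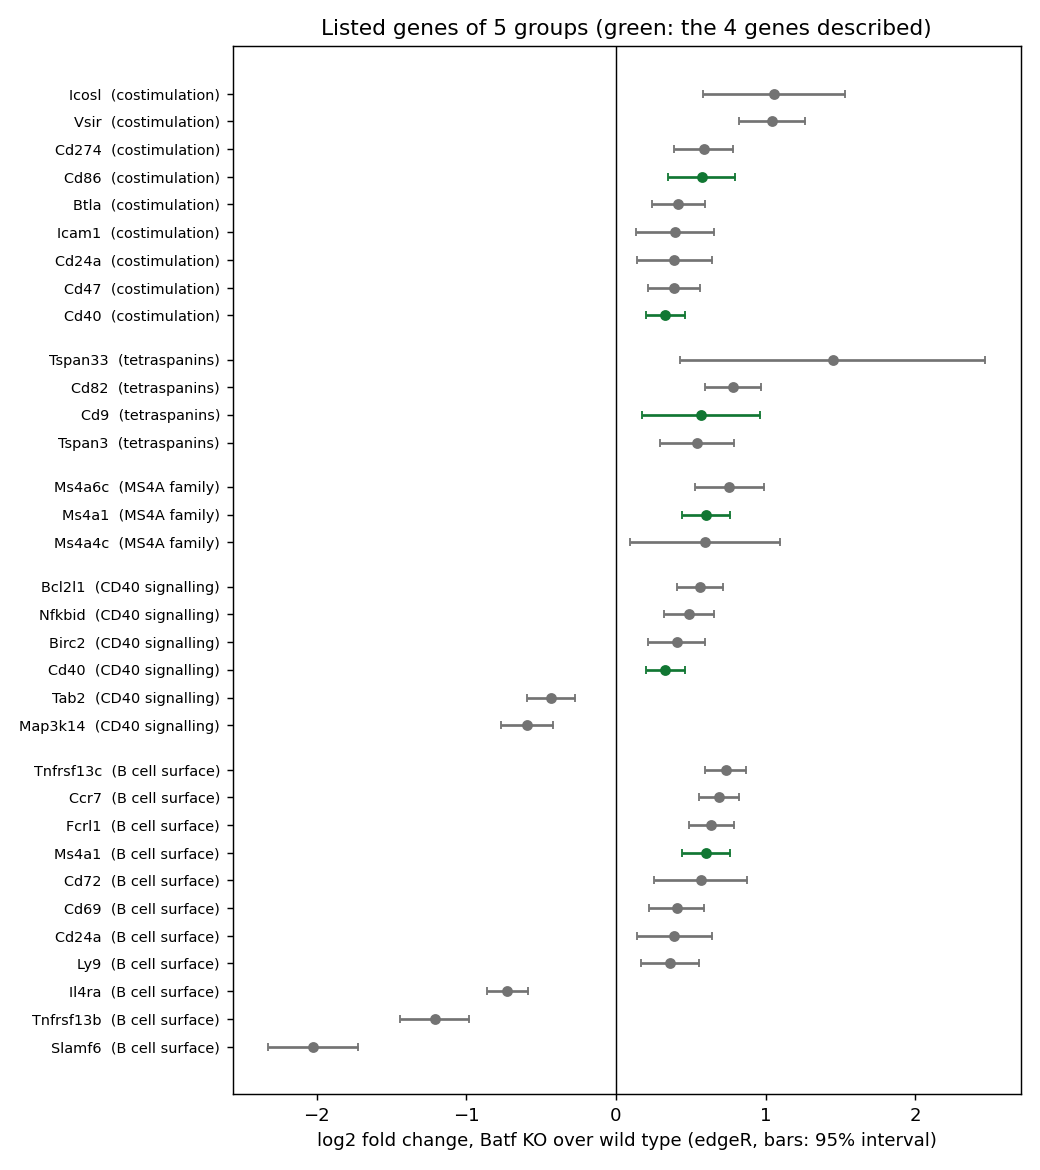
log2 fold change of Batf KO over wild type (horizontal axis) with its 95% interval from edgeR, for every gene of 5 groups that is in the table, with Cd86, Cd40, Ms4a1 and Cd9 in green. All costimulation, tetraspanin and MS4A genes shown lie right of 0, while CD40 signalling (Map3k14, Tab2) and the B cell surface group (Il4ra, Tnfrsf13b, Slamf6) have genes on both sides.

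Cells other than conventional B cells can carry these transcripts: myeloid and dendritic cells express Cd86 and Cd40, and platelets express Cd9. Of 21 myeloid and dendritic genes, Zbtb46 was in the table, at 73.6 to 89.6 CPM in Batf KO and 47.4 to 65.6 CPM in wild type. Of 13 erythroid and platelet genes, Pf4 was in it, at 0.760 to 1.04 CPM in Batf KO and 0.281 to 0.627 CPM in wild type. Of 21 T and NK genes, 2 were in it and they moved in opposite directions. Cd8b1 was at 5.24 to 7.42 CPM in Batf KO and 1.48 to 2.59 CPM in wild type, 3.14-fold higher with no overlap (edgeR adjusted p = 0.0130 over 19734 genes). Tbx21 was at 0.186 to 0.465 CPM in Batf KO, with 30 reads summed over its libraries, and 1.25 to 10.1 CPM in wild type. It was 11.7-fold lower (edgeR adjusted p = 0.0880 over 19734 genes), a fold that rests on those few reads. The sum of the pair, 5.70 to 7.88 CPM in Batf KO and 2.81 to 12.6 CPM in wild type, does not show these moves. None of 12 stromal and endothelial genes was in the table. For all these lists the share to set beside the counts is 3.81%, that of all genes tested which are in the table. The part of these cells in the levels of the 4 genes was not tested, and markers outside the table have no level here.

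Of 16 marginal zone and B1 genes, 4 were in the table, where 3.81% of all genes tested are, and they were divided. Cd9 is among the 4 and was chosen from the table. Of the fitted genes 50.8% were higher. Besides Cd9, the transcription factor gene Bhlhe41 was 1.92-fold higher and Plscr1 rose 1.68-fold, whereas Zbtb32 was 2.22-fold lower. Plscr1 passed over 19734 genes (edgeR adjusted p = 0.0224), and Bhlhe41 and Zbtb32 did not. The summed level of the 4 was 154 to 199 CPM in Batf KO and 134 to 205 CPM in wild type. Of 10 plasma cell genes, Irf4 rose 2.18-fold, while Prdm1, the gene of the plasma cell regulator BLIMP-1, was lower, with 6.11 ± 0.814 CPM in Batf KO (SD, n = 3) and 10.2 ± 2.57 CPM in wild type (SD, n = 4), and missed the adjustment over 19734 genes (edgeR adjusted p = 0.276).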

How the data were processed

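RNA-seq of splenic B cells in 3 Batf KO and 4 wild-type libraries was used, grouped by the genotype label. The design text also mentions 2 replicates of each sample without saying what they are, so each library was treated as 1 mouse, and p-values measure the spread between these libraries. Per the submitters' processing notes, the software was TopHat2 2.0.6, HTSeq 0.5.3p7 and edgeR 3.03 on the genome build mm10; the notes do not say which did what. Per the file headers, the authors deposited a read count and a CPM for each gene and library. The authors' comparison is deposited beside them, with columns for the log2 fold change and mean level, the likelihood ratio (a score), the p-value and the FDR. The number of genes they tested was recovered from the ratio of FDR to p-value.

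Library sizes were taken as count divided by CPM. The 667 genes whose CPM averaged 1 or more were fitted (85 were lower) with edgeR 4.0.16 in R 4.3.3 by the quasi-likelihood test, two-sided, with Benjamini-Hochberg adjustment. The fit was tested on simulated counts of genes that no earlier test had selected. That check gives no error rate for genes selected as in the authors' table. DESeq2 1.42.0 and limma 3.58.1 were alternatives, and scipy 1.17.1 was used in the adjustment of the permutation tests. Gene positions are 1-based from GENCODE M21 (GRCm38, also called mm10), which held 746 of the 752 identifiers. The gene lists name each member found in the table, with values for at most 10 of a list. How many genes of a list the authors tested is not known. The 4 genes, the lists and the tests were chosen with earlier results of these data known. Ctsa was named after its values were seen.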

Additional observations from a re-analysis of the deposited data

Results flagged for a closer look

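The level of Cd86 in wild-type replicate 3, 217 CPM, lay apart from the 255 to 260 CPM of the other 3 wild-type libraries: its distance to the nearest of them was 0.884 of the group's whole range, above Dixon's 95% critical value for 4 samples. The check was run on 10 sets of wild-type values (4 levels and 6 ratios), in which chance gives about 0.5 such samples. Without this library the log2 fold change of Cd86 was 0.52 (edgeR adjusted p = 0.00191).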

How the results depend on the processing

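Cd86, Cd40 and Ms4a1 kept their direction and passed under all 16 alternatives run for each, with log2 fold changes of 0.50 to 0.67, 0.27 to 0.38 and 0.52 to 0.69. Passing over the fitted genes was largely fixed beforehand, since the authors had selected every gene of the table on these libraries. In the main fit 100% of the 667 fitted genes passed. Cd9 was higher under all 16 and did not pass in 2 of them: adjusted over 19734 genes (log2 fold change 0.57, edgeR adjusted p = 0.329) and without wild-type replicates 1 and 2 (0.35, edgeR adjusted p = 0.0717). The first is stricter than the main adjustment by construction, and in the second the cause was not tested. Leaving out those pairs was chosen after seeing the data. With 1 library left out, the log2 fold change of Cd9 was 0.48 to 0.67 (edgeR adjusted p = 0.00788 to 0.0436). The number of the 4 genes called was 3 in those 2 alternatives and 4 in the others. By medians, the ratio differences were 0.0904 for Cd86 to Ms4a1 and -0.0601 for Ms4a1 to Cd9, opposite in sign to those of the means. With 1 library left out they were -0.107 to 0.0921 for Cd86 to Ms4a1, -0.135 to 0.105 for Cd86 to Cd9 and -0.113 to 0.149 for Ms4a1 to Cd9. None of the 6 ratios passed under any alternative, and with 1 library left out the smallest possible p is 0.1 or 0.0667. No paired analysis was possible because the titles carry numbers that differ between the groups, and the replicate numbers used here only name libraries. Scaling by TMM lowered the median of all fitted genes from 0.30 to 0.24, and with the DESeq2 size factors it was 0.29. Both scalings were computed from the table genes alone, all of them listed as differing between the genotypes. They are therefore no independent check of the library sizes.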

Other observations

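Genes whose libraries deviated from their group means most like those of each member were taken by Pearson's r of log2 CPM deviations over the 7 libraries, among 508 other genes that averaged 10 CPM or more. They are a description: with 7 libraries, 6 to 11 genes reach an r above 0.9 for each member, and all genes share the same libraries and depths. For Ms4a1 the nearest were Fam129c (r = 0.96) and Rasal1 (0.94), higher in Batf KO in the authors' deposited table (log2 change 0.65 and 0.45), and Ptch1 (0.94), lower there (-1.09). For Cd86 they were the prostaglandin receptor gene Ptger4 (0.96), the immediate early gene Nr4a1 (0.95) and Bach2 (0.95). Ptger4 and Bach2 are lower in Batf KO, with log2 changes of -0.88 and -0.85 in the authors' deposited table and Nr4a1 is higher (0.91). For Cd40 they were the interferon-induced gene Ifi35 (0.97), Csrp1 (0.97) and the progranulin gene Grn (0.93), all higher in the same table (log2 change 0.43, 0.56 and 0.92). For Cd9 they were Hsf2 (0.99) and Nedd4 (0.97), which are lower there (-0.77 and -0.72), and Erp44 (0.96), which is higher (0.73).

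Beside the MS4A genes named above, the predicted gene Gm8369 lies at the end of the same stretch (chromosome 19, 11485938 to 11512577, 220 kb from Ms4a1) and was at 43.4 ± 3.36 CPM (SD, n = 3) in Batf KO and 29.5 ± 7.62 CPM (SD, n = 4) in wild type. It was chosen after its values were seen. Its edgeR adjusted p over 19734 genes was 0.474. Within 250 kb of Ms4a1, 3 of 24 other annotated genes were in the table, where 3.81% of all genes tested are. How many of the 24, of which 14 are protein-coding, were tested is not known. All 3 were higher, against 50.8% of the fitted genes. They are Gm8369 and the 2 MS4A genes above, Ms4a4c and Ms4a6c. Of the 3, Ms4a6c alone passed over 19734 genes (edgeR adjusted p = 0.00816).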
